A study of Mus musculus with 2 samples.

Results

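The granins and the genes of prohormone processing are described here by their level and their pattern over brain regions in 2 coronal sections of mouse brain. The set comprised 10 of the 32285 genes in the deposited matrices, taken by their symbols: the granins Chga, Chgb, Scg2, Scg3 and Vgf, the granin-like chaperone Scg5, the convertases Pcsk1 and Pcsk2, the convertase inhibitor Pcsk1n, and Resp18. All of them were measured in both sections. Each section came from 1 adult male mouse on a C57BL/6 background that carried ArcCreERT2::eYFPflx, in which the promoter of the activity-regulated gene Arc drives a tamoxifen-dependent Cre and a floxed eYFP reporter can be switched on. Both mice carried the same alleles. The trained mouse learned active place avoidance, where a rotating arena carries the animal towards a shock zone that it must leave. For the untrained mouse the shock was always off. Brains were taken after a memory retention test on the day after the last training trial. Sections had been trimmed to the capture area of a Visium slide, in which a grid of barcoded spots captures polyadenylated RNA from the tissue above it, and 1 section represented each mouse (n = 1 and n = 1).

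Since each group was 1 section, there was no replicate check and no p-value was derived, and what distinguished the groups cannot be told apart from what distinguished 1 animal, cut or library from another. The 2 labels may be swapped against the study's text and pictures. Egr1, an immediate early gene, was detected in 45.1% and 69.6% of the hippocampal spots of the sections labelled trained and untrained, and Arc, another, in 36.8% and 62.8%. Rpl4, a ribosomal protein gene, had 1953 and 842 CPM there. Beside the study's text the order of the sections runs against the labels for Egr1 and for Arc. The Arc share of the section labelled trained is near that of the study's trained mouse. That of the section labelled untrained is far above the study's share for either mouse. The study gives no direction for Rpl4 itself, but describes raised ribosomal function in the trained mouse, which is the way Rpl4 runs here. A swap was not settled here, so every direction is given for the labels as deposited. In total, 4152 spots with 29515831 unique molecular identifiers (UMIs, each a captured RNA molecule) made up the section labelled trained, and 3738 spots with 59029131 UMIs the section labelled untrained. Median depth was 5950.5 and 13766.5 UMIs per spot. Mitochondrially encoded genes took 12.3% and 16.2% of UMIs. The sections also held different tissue, with 232 and 57 striatal spots and 51 and 136 choroid plexus spots. They had 3448 spot barcodes in common, since slides of this design use 1 shared set of grid barcodes. Levels are pooled UMIs of all spots of a region per 1000000 UMIs of that region (CPM), with exact 95% Poisson intervals that cover counting error only. A spot holds several cells, so fewer cells of a type and less RNA per cell cannot be told apart.

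Granins are acidic proteins that are packed with peptide hormones into dense core vesicles and are themselves cut into bioactive peptides. Within these vesicles the prohormone convertases encoded by Pcsk1 and Pcsk2 cut precursors at pairs of basic residues, and each convertase has a small partner protein, proSAAS from Pcsk1n for the first and 7B2 from Scg5 for the second. Hypothalamic neurons that release peptides, such as those of oxytocin and vasopressin, are known for a high content of these vesicles.

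Several of these promoters hold the letters of a cAMP response element, the DNA motif that the transcription factor CREB is known to bind, and these windows are shown because 4 of the genes have the same or nearly the same motif there. The motif TGACGTCA was searched on both strands of the 250 bases before the start of each RefSeq gene on GRCm38.p6. It was found in 3 of the 9 genes with a promoter in the table, Chgb, Scg2 and Pcsk1, and in 1.55% of all 32851 promoters. Chga held the related motif TGACGTAA, which 0.447% of promoters held. The TATA motif TATAAA, which 12.4% of promoters held, was in none of the 9 windows. In the lines that follow, 30 bases are printed 5′ to 3′ on the strand of the gene with the motif in capitals.
Chgb promoter, chr2:132781559-132781588, plus strand: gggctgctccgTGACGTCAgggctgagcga
Scg2 promoter, chr1:79440076-79440105, minus strand: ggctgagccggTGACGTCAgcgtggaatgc
Pcsk1 promoter, chr13:75089768-75089797, plus strand: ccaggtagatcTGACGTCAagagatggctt
Chga promoter, chr12:102554886-102554915, plus strand: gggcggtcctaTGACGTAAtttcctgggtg
The first base of the motif lay 72, 68, 78 and 44 bases before the RefSeq start of Chgb, Scg2, Pcsk1 and Chga. In the GENCODE annotation of the same build an exon overlapped the window in 1 of 1 Chgb transcripts and in 1 of 2 Scg2 transcripts, and in none of the 3 Pcsk1 and 3 Chga transcripts. A match describes these letters only, and no binding was measured.

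Members of the set took 125078 UMIs (0.424%) of the section labelled trained and 201379 UMIs (0.341%) of the section labelled untrained. Their patterns differed from each other, as the maps of Resp18, Scg2, Chgb and Pcsk2 show. Resp18 and Scg2 were highest in the hypothalamus at the base of the section, Chgb in the CA3 pyramidal layer of the hippocampus, and Pcsk2 in cortex, CA3 and thalamus.

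**Figure D1:**
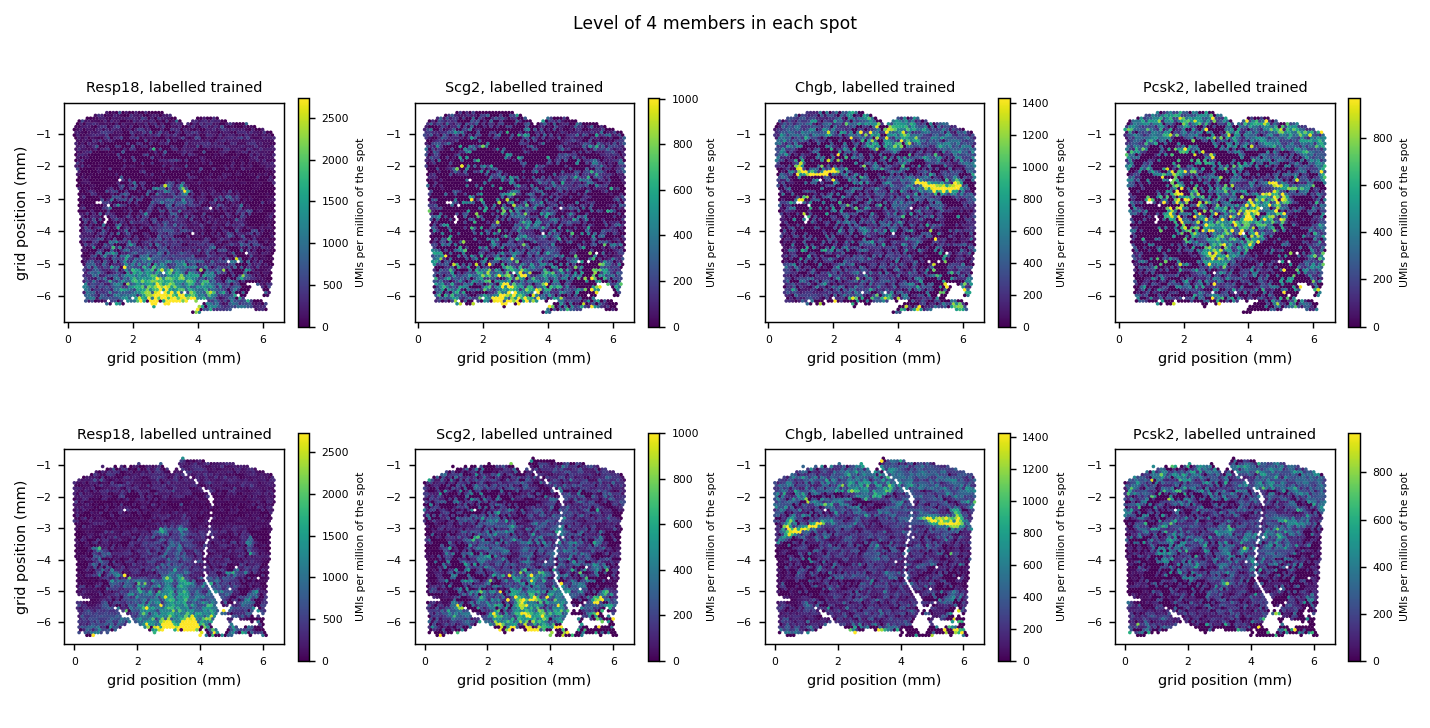
Level of Resp18, Scg2, Chgb and Pcsk2 in each spot of at least 500 UMIs (colour, UMIs per 1000000 UMIs of the spot, capped at the 99th percentile of both sections) at its grid position in mm, with the section labelled trained above and the section labelled untrained below. Resp18 and Scg2 are bright at the base of both sections, and Chgb follows a curved band that is the CA3 layer, where its pooled level was 1548 and 1114 CPM.

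Regions were made by clustering the spots of both sections together without any member of the set, without immediate early genes and without the 2 lists of related genes used further on, so no member's own level drew a region, although genes that vary with the members did. Clusters were named from marker genes. Those without a name, and 2 that matched a mixed list of subcortical inhibitory cells, are called by leading genes. An unnamed cluster of shallow spots (76 and 71 spots with a median of 1462 and 1488 UMIs, led by Ccdc152 and Ulk4) was left out of region rankings and comparisons. The hypothalamus comprised a medial region (236 and 202 spots) and a lateral region (219 and 276 spots). The summed level of its 10 markers was 3281 and 2685 CPM in hypothalamic spots and 385 and 541 CPM in hippocampal spots, but Nr5a1, a marker of the ventromedial nucleus, was at 0 in hypothalamic spots of both sections. Of 5 pituitary markers, looked for because that tissue is rich in granins, Prl, Cga and Tshb were at 0 in the hypothalamic spots of both sections and Gh in those of the section labelled trained. The set summed to 25.1 CPM (81 UMIs) and 16.8 CPM (129 UMIs) there, and in the section labelled trained these were all of Pomc, which hypothalamic neurons also express. The cluster called CA3 held Homer3 of the CA3 markers and Rgs14 of the CA2 markers among its leading genes.

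In the hypothalamus, 3 of the 10 genes were at least 1.5-fold above the rest of the section labelled trained (Pcsk1, Resp18 and Scg2), where 6.59% of the 10566 genes with at least 200 UMIs were. In the section labelled untrained 6 of the 10 were (Chga, Pcsk1, Pcsk1n, Resp18, Scg2 and Vgf), against 5.77% of 12077 genes. Pcsk2 was at least 1.5-fold lower in the hypothalamus of the section labelled trained, and Pcsk2 and Chgb in that of the section labelled untrained, where 11.1% and 11.9% of all genes were that much lower. The median log2 ratio of the 10 genes was 0.42 and 0.66, beside -0.02 and -0.04 over all genes. Within the medial region alone, 4 genes of the section labelled trained (Pcsk1, Pcsk1n, Resp18 and Scg2; 9.99% of all genes) and 7 of the section labelled untrained (the same 4 with Chga, Scg5 and Vgf; 8.41%) were at least 1.5-fold higher. The counts for the whole hypothalamus rest on a limit, and there Vgf, Pcsk1n and Chga lay on either side of it at 1.27-fold and 1.53-fold, 1.47-fold and 1.64-fold, and 1.41-fold and 1.72-fold in the sections labelled trained and untrained.

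**Figure D2:**
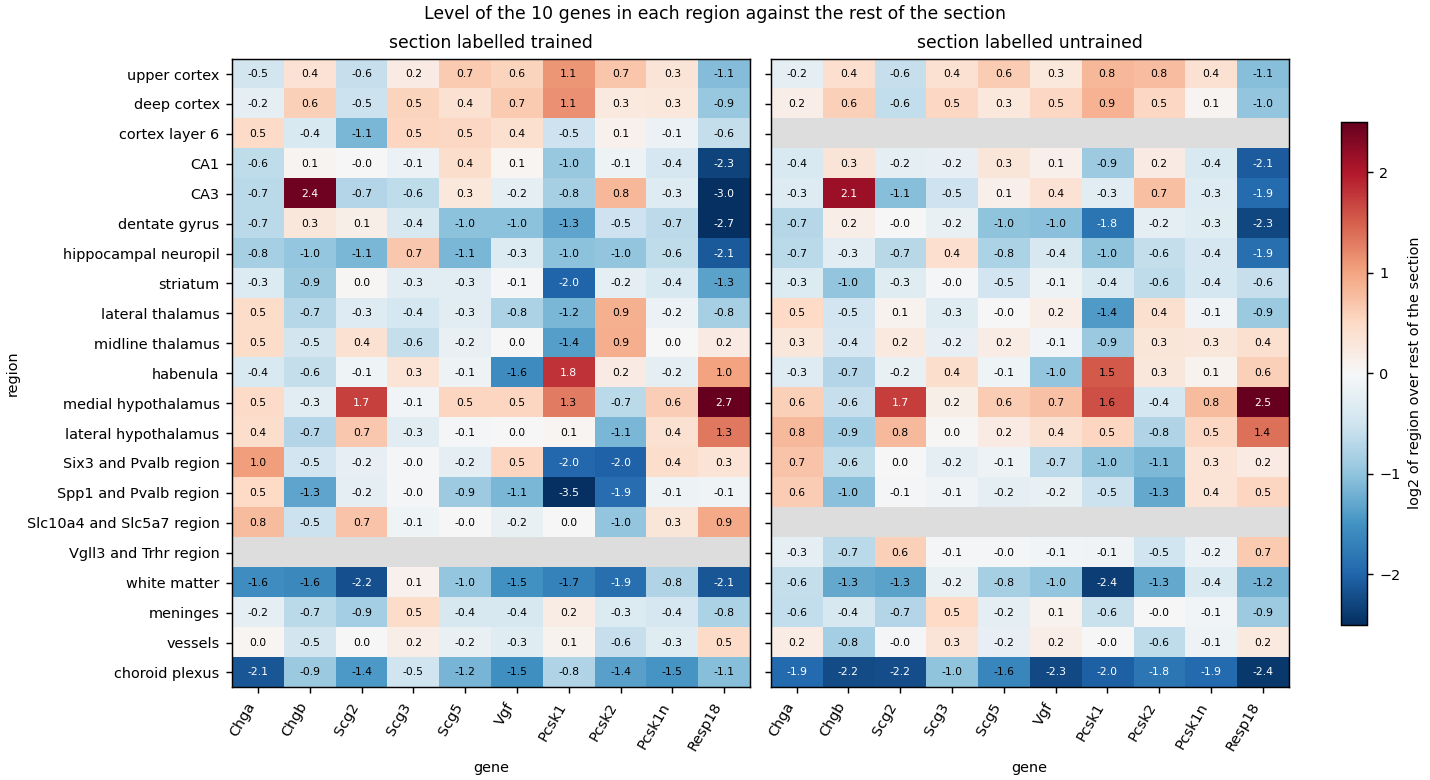
Level of each gene in each ranked region of at least 30 spots against the rest of the section, as log2 of the ratio of pooled CPM (colour, limited to 2.5 on either side of 0; the number is printed in each cell), for the section labelled trained on the left and untrained on the right; grey cells are regions under 30 spots in that section. Resp18 stands at 2.7 and 2.5 in the medial hypothalamus and Chgb at 2.4 and 2.1 in CA3, and the choroid plexus is below 0 for all 10 genes in both sections.

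Resp18 encodes an endoplasmic reticulum and vesicle protein of neuroendocrine cells, and its gene lies at chr1:75272199-75278415 on the minus strand of mm10. Medial hypothalamic spots reached 1719 CPM (95% interval 1659 to 1780) in the section labelled trained and 1702 CPM (1660 to 1745) in the section labelled untrained. The left and right sides gave 1814 and 1539 CPM in the former and 1643 and 1740 CPM in the latter. Those levels were 6.67-fold and 5.72-fold the rest of the section, and the hypothalamus as a whole held 41.7% and 43.3% of all Resp18 UMIs. The lateral hypothalamus followed with 813 and 900 CPM, with no overlap of the intervals, and the habenula, a small epithalamic nucleus, reached 688 and 574 CPM. At the other end of the order, CA3 in the section labelled trained had 43.3 CPM (46 UMIs) and choroid plexus in the section labelled untrained 76.3 CPM. CA1, CA3, dentate gyrus and hippocampal neuropil ranged from 43.3 to 82.0 CPM and from 83.3 to 106 CPM. After spots were thinned to 1000 UMIs, which makes depth equal and leaves out the 238 and 142 spots below that, 66.3% and 66.2% of hypothalamic spots were expected to hold a Resp18 UMI, against 7.55% and 13.9% of white matter spots, which hold few neuronal cell bodies. Without thinning, white matter spots held one in 26.2% and 55.7% of cases, at a median depth of 4251 and 7303 UMIs. An unnamed gene model on the other strand, Gm28902, overlaps the last 500 bases of Resp18.

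Scg2 encodes secretogranin II, the precursor of secretoneurin, at chr1:79434669-79440120 on the minus strand. Its highest level was likewise in the medial hypothalamus, at 488 CPM (456 to 521) and 565 CPM (541 to 590), which was 3.28-fold and 3.30-fold the rest of the section. Left and right sides of that region gave 521 and 425 CPM, and 553 and 573 CPM. The lateral hypothalamus had 263 and 328 CPM. Within the hippocampus the dentate gyrus was highest at 186 and 195 CPM, and CA3 had 103 and 96.1 CPM. Lowest were white matter in the section labelled trained at 38.5 CPM and choroid plexus in the section labelled untrained at 44.8 CPM.

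Chgb, which encodes chromogranin B (chr2:132781278-132795079, plus strand), had a pattern of its own. CA3 reached 1548 CPM (1474 to 1624) and 1114 CPM (1079 to 1150), 5.38-fold and 4.40-fold the rest of the section. On the left and right, CA3 held 1478 and 1570 CPM in the section labelled trained and 999 and 1190 CPM in the section labelled untrained. Deep cortex came next at 465 and 431 CPM, and the intervals of the first and second region did not overlap in either section. Dentate gyrus had 400 and 337 CPM and CA1 350 and 375 CPM. The hypothalamus stood at 245 and 189 CPM, 0.714-fold and 0.594-fold the rest of the section. Single spots held up to 92 and 127 Chgb UMIs, both of them in CA3.

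Chga encodes chromogranin A, a core protein of the vesicle, at chr12:102554969-102565028 on the plus strand. In the section labelled trained its highest level was in the region led by Six3 and Pvalb, the latter known from fast-spiking inhibitory neurons, at 457 CPM (415 to 502), which overlapped the region led by Slc10a4 and Slc5a7. Lateral hypothalamus was highest in the section labelled untrained at 206 CPM (193 to 221), followed by the Six3 and Pvalb region at 201 CPM (163 to 245), and the intervals overlapped. Hippocampal regions were low, between 130 and 150 CPM and between 76.6 and 99.98 CPM. Choroid plexus had 51.9 and 33.8 CPM.

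Vgf encodes a granin-like precursor that neurotrophins are known to induce (chr5:137026392-137033351, plus strand). Deep cortex was highest in the section labelled trained at 103 CPM (94.2 to 113), with the medial hypothalamus at 100 CPM (86.3 to 116), and these overlapped. In the section labelled untrained the medial hypothalamus led with 145 CPM (133 to 158), above deep cortex with 123 CPM (115 to 131). The dentate gyrus was at 35.7 and 45.4 CPM, below CA1 at 73.7 and 98.8 CPM with no overlap of the intervals.

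Scg3 encodes secretogranin III, an adaptor that binds Chga to the vesicle membrane (chr9:75643189-75684056, minus strand). It was the flattest member, with a ratio of 2.42 and 2.71 between its highest and lowest region, where Resp18 had 39.7 and 22.3. Hippocampal neuropil reached 231 and 206 CPM, and CA3 had 95.1 and 109 CPM, opposite in order to Chgb. White matter, where other members were low, had 156 and 137 CPM of Scg3, 1.07-fold and 0.882-fold the rest of the section.

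Scg5 encodes 7B2, the chaperone that Pcsk2 needs to become active (chr2:113776362-113829121, minus strand). Upper cortex had 720 CPM (691 to 750) and 651 CPM (629 to 674), the medial hypothalamus 685 CPM (648 to 724) and 662 CPM (636 to 689), and CA1 651 and 539 CPM. The intervals of upper cortex and medial hypothalamus overlapped in both sections. The dentate gyrus stood apart from CA1 at 243 and 228 CPM, 0.488-fold and 0.501-fold the rest of the section.

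Pcsk1n encodes proSAAS, an inhibitor of the convertase of Pcsk1, at chrX:7919822-7924410 on the plus strand. Medial hypothalamus was highest in both sections at 3218 CPM (3136 to 3301) and 2515 CPM (2464 to 2567), 1.53-fold and 1.73-fold the rest of the section. Lateral hypothalamus had 2785 and 2120 CPM, upper cortex 2653 and 1927 CPM, CA1 1632 and 1181 CPM and choroid plexus 789 and 418 CPM. Eras lies on the other strand and overlaps the last 500 bases of Pcsk1n.

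The convertases had unlike distributions. Pcsk1 (chr13:75089826-75134861, plus strand) had few UMIs, 413 and 598 in all. Habenula came first with 46.5 CPM (28.4 to 71.7, 20 UMIs) and 27.5 CPM (19.8 to 37.2, 42 UMIs), then the medial hypothalamus with 31.2 CPM (23.7 to 40.5) and 27.3 CPM (22.2 to 33.2), then upper cortex with 26.7 and 16.9 CPM and deep cortex with 26.0 and 16.7 CPM. The intervals of habenula and medial hypothalamus overlapped. Lateral and midline thalamus held only 6.36 and 5.41 CPM in the section labelled trained and 3.97 and 5.44 CPM in the section labelled untrained. Thinned to 1000 UMIs, 2.06% and 1.80% of hypothalamic spots were expected to hold a Pcsk1 UMI, against 0.415% and 0.133% of white matter spots.

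Pcsk2 (chr2:143546156-143816285, plus strand) was highest in other regions than Pcsk1, although over all regions their levels had a positive r of 0.41 and 0.44 and cortex was high for both. Midline thalamus had 474 and 225 CPM, lateral thalamus 472 and 239 CPM, CA3 469 and 301 CPM and upper cortex 407 and 298 CPM. The first 3 of these overlapped in the section labelled trained, and CA3 and upper cortex were the overlapping top pair in the section labelled untrained. The hypothalamus stood at 153 CPM (140 to 167) and 125 CPM (117 to 133), 0.538-fold and 0.642-fold the rest of the section. Long non-coding genes on the other strand, Pcsk2os1 and Pcsk2os2, overlap Pcsk2.

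The balance of the convertases was followed as the ratio of Pcsk1 to Pcsk2 UMIs, which within 1 section does not depend on depth. Over a whole section this ratio was 0.0519 and 0.0545. In the hypothalamus it was 0.156 (77 to 494 UMIs) and 0.164 (157 to 958 UMIs), a log2 difference from the rest of the section of 1.80 (1.42 to 2.18) and 1.90 (1.62 to 2.18). The habenula gave 1.60 (0.91 to 2.30) and 1.24 (0.76 to 1.72). Deep cortex was higher as well, at 0.90 (0.58 to 1.22) and 0.34 (0.04 to 0.64). On the other side lay the lateral thalamus at -2.05 (-2.82 to -1.27) and -1.83 (-2.42 to -1.23) and the hippocampus at -1.18 (-1.74 to -0.62) and -1.29 (-1.68 to -0.89). The midline thalamus was there too, at -2.29 (-3.12 to -1.45) and -1.22 (-1.83 to -0.61). The striatum differed between the sections, at -1.78 (-2.80 to -0.77) and 0.26 (-1.05 to 1.56). The chaperone and Pcsk2 were also unequally distributed, and the ratio of Scg5 to Pcsk2 UMIs was 1.22 and 1.10 higher on the log2 scale in the hypothalamus than in the rest of the section. The inhibitor Pcsk1n relative to Pcsk1 was lower in the habenula, by -2.04 (-2.69 to -1.38) and -1.43 (-1.89 to -0.98), where Pcsk1 was at its highest.

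Across the 18 ranked regions with at least 30 spots in both sections, the levels of a gene in the sections correlated with Pearson's r between 0.73 (Vgf) and 0.93 (Chga), as a description in which the regions of a section share a library. Over regions within a section, Chga and Pcsk1n had the highest r among the 45 pairs of members, at 0.84 (20 regions) and 0.87 (19 regions). Scg5 and Vgf had 0.73 and 0.85, Chgb and Pcsk2 0.59 and 0.80, and Chgb and Resp18 -0.33 and -0.27.

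In the hippocampus, Chgb was the member at least 1.5-fold above the rest of the section in both sections (1 of 10; 9.86% and 8.68% of all genes). Chga, Pcsk1 and Resp18 were at least 1.5-fold below it in the section labelled trained, and Pcsk1 and Resp18 in the section labelled untrained (15.8% and 16.6% of all genes). CA3 alone held Chgb and Pcsk2 at that level in both sections, beside 11.7% and 7.85% of all genes. The layers were ranked differently by different members. Chgb and Pcsk2 were highest in CA3, Scg5 in CA1 and Scg3 in the neuropil, while Scg2 was higher in the dentate gyrus than in CA3.

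**Figure D3:**
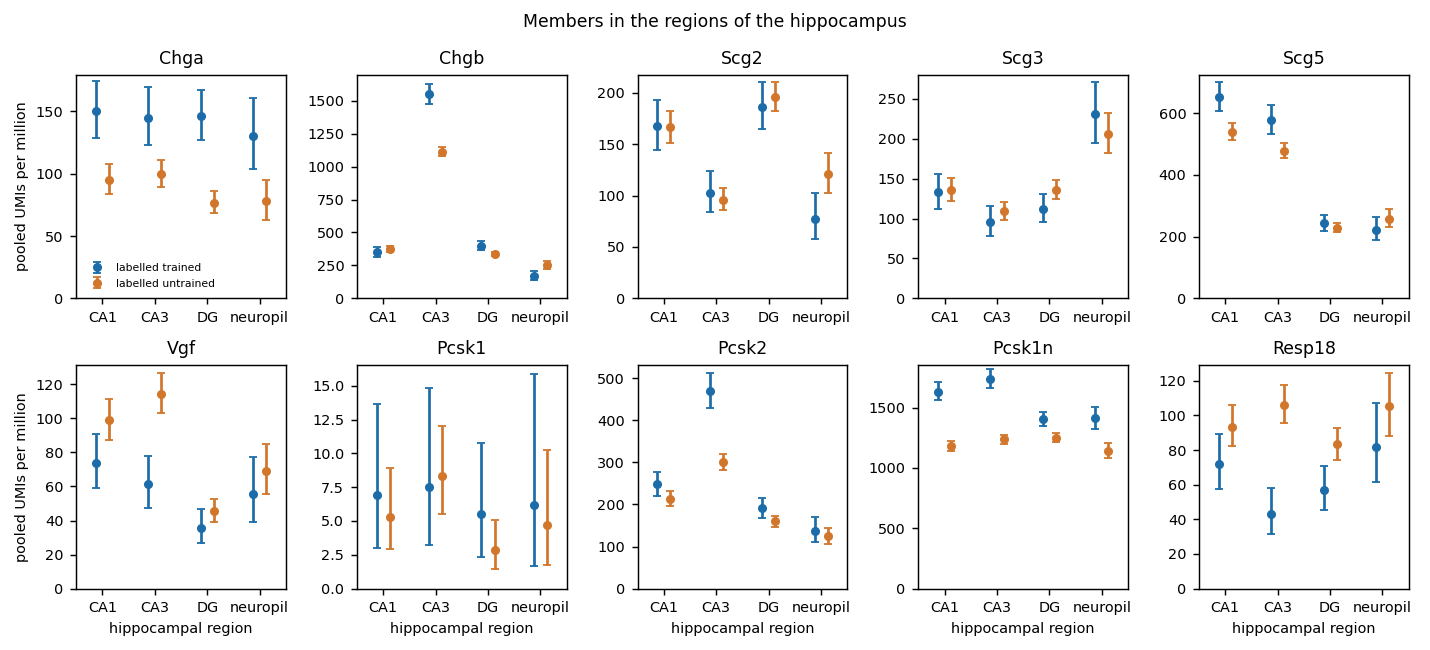
Pooled level (CPM, from 0) of the 10 genes in CA1, CA3, dentate gyrus (DG) and neuropil of the hippocampus, blue for the section labelled trained and orange for the section labelled untrained, with bars for the 95% Poisson interval. Chgb rises to 1548 and 1114 in CA3, and Scg5 falls from 651 and 539 in CA1 to 243 and 228 in the DG.

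Glial tracts and the choroid plexus marked the lower end. In white matter 9 of 10 members (all but Scg3) and 8 of 10 (all but Scg3 and Pcsk1n) were at least 1.5-fold below the rest of the section, where 31% and 26.3% of all genes were. In the choroid plexus 9 of 10 (all but Scg3) and 10 of 10 were, where 34.1% and 38.6% of all genes were. A large share of all genes was thus low in these regions.

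Inside the hypothalamus the levels were followed by distance from the midline in steps of 0.5 mm. The midline was the median grid column of the habenula spots, with no correction for tilt, and left and right sides were divided at the same column. Medial hypothalamic spots lay a median of 11 and 6 columns from it, so the bands may not match anatomically between the sections. Resp18 went from 1690 CPM (1607 to 1775) in the innermost 500 µm to 734 CPM (660 to 814) beyond 1500 µm in the section labelled trained, and from 1518 to 747 CPM in the section labelled untrained. For Scg2 these were 461 and 233 CPM, and 520 and 270 CPM. Pcsk1 had 35.5 CPM (33 UMIs) in the innermost band and 8.11 CPM (4 UMIs) in the outermost, and 77 and 6 UMIs in the section labelled untrained, where the outermost band had 7.51 CPM. Chga had another course, with 291, 298, 362 and 290 CPM from the innermost to the outermost band and 168, 205, 225 and 196 CPM in the section labelled untrained. It was highest between 1000 and 1500 µm in both, and in the section labelled untrained that band (203 to 248) did not overlap the innermost (154 to 183). Pcsk1n moved little, from 3177 to 2737 CPM and from 2389 to 2216 CPM.

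**Figure D4:**
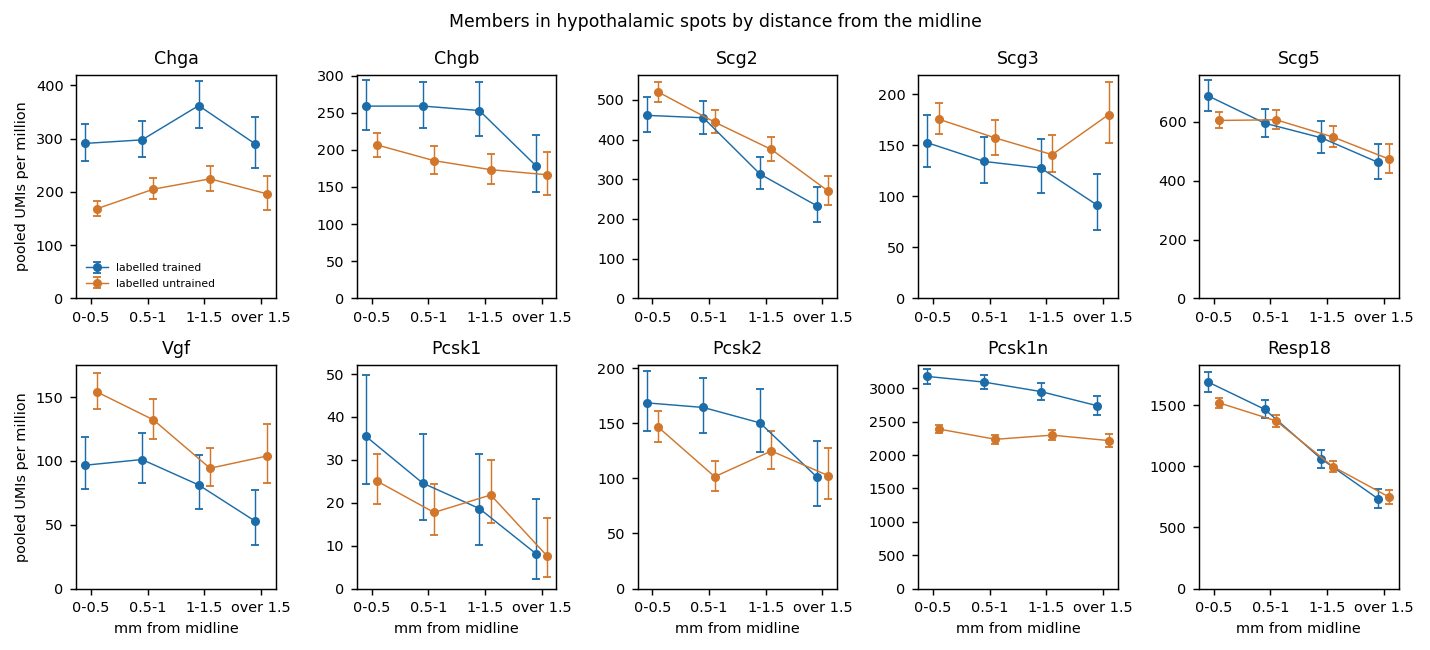
Pooled level (CPM, from 0) of the 10 genes in hypothalamic spots by distance from the midline in mm, blue for the section labelled trained and orange for the section labelled untrained, with bars for the 95% Poisson interval. Resp18 and Scg2 decline outwards in both sections, Resp18 from 1690 to 734 and from 1518 to 747.

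Spots rich in oxytocin and vasopressin were then compared with their neighbours. In 46 hypothalamic spots of the section labelled trained Oxt and Avp made up at least 1% of UMIs, and all 46 lay in the medial region. Scg2 had 668 CPM there against 358 CPM in the other hypothalamic spots, a log2 ratio of 0.90 (0.69 to 1.11). Resp18 had 2060 against 1240 CPM (0.73, 0.61 to 0.85). These were 2 of the 9 members with at least 200 UMIs that were 1.5-fold higher, where 2.81% of 2773 genes were. The other 7, Chga, Chgb, Scg3, Scg5, Vgf, Pcsk2 and Pcsk1n, had ratios from -0.21 (Chga) to 0.47 (Scg3). Against the other medial spots alone both fell under 1.5-fold, Scg2 at 0.58 (0.35 to 0.80) and Resp18 at 0.33 (0.20 to 0.45). Pcsk1, with 24 UMIs and so not counted, had 71.9 against 18.3 CPM, a log2 ratio of 1.99 (1.21 to 2.70) that was 1.71 against the other medial spots. These spots had a median of 7885 UMIs and the other hypothalamic spots 6933. Only 6 such spots occurred in the section labelled untrained, 5 of them medial, and Pcsk1 there had 5 UMIs (37.4 against 20.2 CPM; log2 ratio 1.02, -0.76 to 2.14). None of the 9 members passed 1.5-fold in those 6 spots, where 12.8% of 5559 genes did. Spots in which Pmch and Hcrt made up at least 0.5% of UMIs numbered 0 and 1, too few to compare.

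Between the sections as labelled, 1 of the 10 genes differed by 1.5-fold or more over the whole section, and this was Chga. It had 230 CPM (224 to 235) in the section labelled trained and 123 CPM (120 to 126) in the section labelled untrained, a log2 ratio of 0.90 (0.85 to 0.95). Among the 11460 genes with at least 400 UMIs, 8.06% were 1.5-fold higher and 4.75% that much lower, and the median log2 ratio was 0.07. Pcsk2 had 270 and 186 CPM (0.54, 0.50 to 0.58) and Pcsk1n 2170 and 1524 CPM (0.51, 0.50 to 0.52), both short of the limit. Pcsk1 had 14.0 and 10.1 CPM (0.47, 0.28 to 0.65). Chgb (333 and 302 CPM) and Scg5 (485 and 441 CPM) both had a ratio of 0.14. On the lower side lay Vgf with 71.5 and 90.7 CPM (-0.34, -0.42 to -0.27), Scg2 with 170 and 196 CPM (-0.20), Resp18 with 348 and 384 CPM (-0.14) and Scg3 with 146 and 155 CPM (-0.08). Weighting each spot equally or taking the left side alone added Pcsk2, and the left side alone or removal of a trend with GC content added Pcsk1n. On the left side alone Resp18 turned to 0.14 (0.09 to 0.19), Scg2 to 0.04 (-0.04 to 0.11) and Scg3 to 0.07 (-0.01 to 0.15). Their ratios on the right were -0.40, -0.38 and -0.19, and Vgf was below 0 on both sides.

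Chga was above 0 on this scale in all 12 regions with enough UMIs to compare and past 1.5-fold in 9 of them, from 0.54 in CA3 to 1.18 in the Six3 and Pvalb region. White matter, with 135 and 258 UMIs just short of the minimum of 400 in both together, had 81.1 and 82.5 CPM (-0.02, -0.34 to 0.28). Over the 18 regions compared, between 5.22% and 19.8% of all genes were 1.5-fold higher and between 2.25% and 9.37% lower. In the hypothalamus it had 310 and 194 CPM (0.68, 0.56 to 0.79), at a median depth of 6945 and 15864 UMIs per spot, the 1 of 9 members past the limit there, beside 9.07% of 4343 genes (4.65% were lower). Pcsk2 was above 0 in all 11 of its regions, with 1.07 (0.95 to 1.20) in the midline thalamus, 0.98 (0.87 to 1.10) in the lateral thalamus, 0.97 in the striatum and 0.64 in CA3 past the limit. Pcsk1n was above 0 in all 18 regions, and past it in deep cortex at 0.67 (0.64 to 0.71) and in 3 further regions. In the lateral thalamus 2 of 9 members were 1.5-fold higher (Chga and Pcsk2; 8.93% of genes) and 2 lower (Scg2 at -0.59 and Vgf; 5.73%). Chga and Pcsk2 were the 2 of 9 in the midline thalamus (8.56%). In CA3 Pcsk2 was the 1 of 9 that was higher (9.61%) and Vgf and Resp18 the 2 lower (5.52%). Vgf was below 0 in all 7 of its regions, with 42.7 and 101 CPM in the lateral thalamus (-1.23, -1.57 to -0.93) and 61.2 and 115 CPM in CA3 (-0.89, -1.31 to -0.52). With 96 and 28 UMIs, too few to be counted, the Six3 and Pvalb region ran the other way at 101 and 56.8 CPM (0.82, with a lower bound of 0.22). Resp18, although nearly equal in the hypothalamus at 1324 and 1283 CPM (0.05, -0.01 to 0.10), was 1.5-fold lower or more in 4 of its 15 regions, among them CA3 with 43.3 and 106 CPM (-1.28, -1.77 to -0.85) and white matter with 82.3 and 176 CPM (-1.09, -1.37 to -0.82).

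In the hippocampus, the part of the brain that the study addressed, 1 of 9 members was 1.5-fold higher, Chga with 144 and 87.8 CPM (0.71, 0.57 to 0.86; 8.78% of 5706 genes), and 1 was that much lower, Resp18 with 59.8 and 94.4 CPM (-0.66, -0.86 to -0.46; 4.21%). Vgf had 55.4 and 81.5 CPM (-0.56, -0.77 to -0.35), just inside the limit. On the left Chga had 128 and 91.7 CPM (0.48, 0.20 to 0.76) and on the right 150 and 85.8 CPM (0.81, 0.63 to 0.99), so the limit was passed on the right alone. Chga had a ratio of 0.50 when spots counted equally and of 0.37 when spots were thinned to 1000 UMIs, both under the limit, while that of Vgf was -0.60 and -0.76, past it. Depth and choroid plexus RNA differed between the same spots. Their median was 5387 and 16982.5 UMIs, and the 7 choroid plexus markers, none of them at 0, summed to 1052 and 4548 CPM in the hippocampus and to 656 and 5106 CPM in CA3. The part of either in these ratios was not tested.

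**Figure D5:**
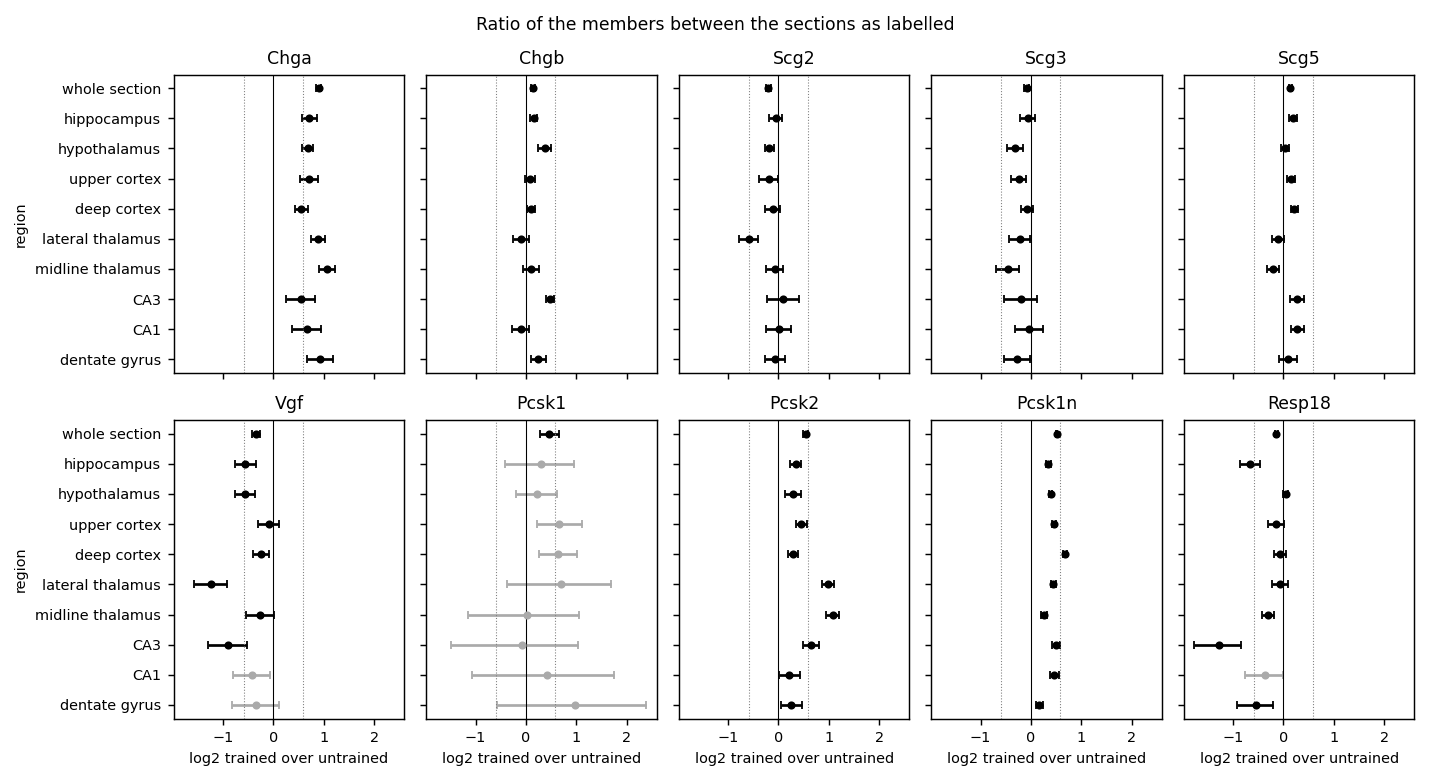
Log2 ratio of pooled CPM, section labelled trained over section labelled untrained, for each gene in the whole section and in 9 regions, with bars for the exact 95% interval from counting error; black points had at least 400 UMIs in both sections together, grey points fewer, and dotted lines mark 1.5-fold. Chga lies to the right of 0 in every row shown, at 0.90 over the whole section, while Resp18 lies near 0 in the hypothalamus at 0.05 and at -1.28 in CA3.

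Hippocampal spots were also divided by detection of Arc, an immediate early gene that neuronal activity induces and that the study used to mark spots. At 1 UMI or more, 205 of 557 spots (36.8%) and 339 of 540 spots (62.8%) were Arc-positive. In the section labelled trained 3 of 9 members were at least 1.5-fold higher in Arc-positive spots, where 6.09% of 3760 genes were: Scg5 with 552 against 309 CPM (0.84, 0.70 to 0.98), Chgb with 812 against 456 CPM (0.83, 0.72 to 0.95) and Pcsk2 with 328 against 203 CPM (0.70, 0.52 to 0.87). In the section labelled untrained Chgb with 639 against 409 CPM (0.64, 0.55 to 0.73) and Scg5 with 424 against 275 CPM (0.63, 0.52 to 0.74) were the 2 of 9, beside 3.14% of 7017 genes, and Pcsk2 had 231 against 161 CPM (0.52, 0.38 to 0.67). Chga, Scg2, Scg3, Vgf, Pcsk1n and Resp18 were under 1.5-fold in both, from -0.30 (Scg3) to 0.49 (Vgf) and from -0.20 (Resp18) to 0.54 (Vgf), and Pcsk1 had too few UMIs. Arc-positive spots held more pyramidal layer, with 40.0% against 9.66% of them in CA1 for the section labelled trained and 34.5% against 5.47% for the section labelled untrained. They were also deeper, with medians of 7952 against 3991 UMIs and of 18446 against 12508 UMIs. With the hippocampal regions given equal makeup, no member was past 1.5-fold in the section labelled trained (Chgb 0.43, Scg5 0.32, Pcsk2 0.42). For the section labelled untrained, Chgb (0.38) and Scg5 (0.29) were no longer past it, and Pcsk2 moved past it from 0.52 to 0.61. With the same equal makeup Vgf fell to 0.10 in the section labelled trained and turned to -0.28 in the section labelled untrained. Within CA1 alone Vgf was at -0.25 (-0.97 to 0.58) and -0.84 (-1.49 to -0.02), the latter with 11 Arc-negative spots. When Arc was called at equal depth no member passed in either section, and Chgb in the section labelled untrained turned to -0.24 (-0.38 to -0.10). Vgf was at 0.41 and 0.39 in that setting.

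Moran's I, a score of spatial clustering that the authors computed for each gene, placed Resp18 at 0.519 (rank 17 of 20513 genes listed) and 0.520 (rank 20 of 21498). Pcsk1n followed with 0.365 (rank 114) and 0.333 (rank 247), and Chgb had 0.230 and 0.330. The lowest members were Scg3 in the section labelled trained at 0.074 and Pcsk1 in the section labelled untrained at 0.085. After thinning to 1000 UMIs per spot, I was 0.283 and 0.251 for Resp18, highest of the members in both sections, while the median of the 10 genes was 0.0586 and 0.0359.

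The genes with the most similar pattern over regions were found by Pearson's r of log2(CPM + 1) over 20 and 19 regions, averaged over the sections, among 8412 genes. Resp18 was closest to Impact (mean r 0.94), an imprinted translational regulator, then to Tmem130 (0.93) and Tmem91 (0.92). Chga and Pcsk1n had neighbours in common, Bend6 (0.92 and 0.91) and Flywch1 (0.90 and 0.93), with Tubb3 (0.90) for Chga and Zwint (0.92) for Pcsk1n. Chgb was nearest to Cacna1a (0.90), a presynaptic calcium channel subunit, to the active zone protein gene Bsn (0.88) and to Pcdh1 (0.87). Pcsk1 was nearest to Adcyap1 (0.81), a peptide precursor, to Pam (0.79), the enzyme that amidates peptides, and to Mboat7 (0.75). Pcsk2 was nearest to the vesicle protein gene Sv2b (0.86), Josd1 (0.85) and Acsl4 (0.85), Scg5 to Gng3 (0.91), Prkar1b (0.90) and Rian (0.90), Vgf to Vsnl1 (0.86), Ppp2r2b (0.84) and Serp2 (0.83), and Scg2 to Rpl22l1 (0.91), Lonrf2 (0.89) and Ctxn2 (0.87). Scg3 had the weakest matches, Cspg5 (0.80), Arnt2 (0.71) and Amn (0.70).

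Other genes of the pathway were read from 2 lists, one of 46 genes for processing enzymes and dense core vesicles and one of 38 peptide precursors. In the hypothalamus 6 of 40 processing genes were 1.5-fold higher and 6 lower in the section labelled trained, and 6 of 42 higher and 5 lower in the section labelled untrained, with medians of -0.03 and 0.00. Among all genes tested 6.59% were higher and 11.1% lower, and 5.77% and 11.9%, with medians of -0.02 and -0.04. Baiap3, which acts in vesicle trafficking, was highest at 239 against 13.7 CPM and at 151 against 15.1 CPM. It was also one of the 10 hypothalamic markers used for naming. Ece2, a peptide-degrading protease, had 51.3 against 19.2 CPM in the section labelled trained, and Qpct, which modifies peptide ends, 22.8 against 8.96 CPM in the section labelled untrained. Of the peptide precursors 12 of 20 were higher and 7 lower, and 12 of 25 higher and 5 lower. Avp in the section labelled trained and Oxt and Pmch in the section labelled untrained reached the minimum of 200 UMIs only through the hypothalamus, so these counts are partly fixed by that minimum and are a description. Oxt led with 5380 against 82.7 CPM and 469 against 2.61 CPM, and next were Avp with 165 against 7.19 CPM in the section labelled trained and Pmch, the precursor of melanin-concentrating hormone, with 83.4 against 2.61 CPM in the section labelled untrained.

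Between the sections, 2 of 42 processing genes were 1.5-fold higher in the section labelled trained, Sorcs1 (20.2 and 11.4 CPM) and Qpct (log2 ratio 0.82), and 2 lower, Stx1a (48.2 and 77.7 CPM) and Syt9 (13.1 and 21.1 CPM), with a median of 0.01. Of 23 peptide precursors 7 were higher and 2 lower, with a median of 0.19. Genes entered at 400 UMIs in both sections together, which Pmch and Avp reached mostly through 1 of them, and the tissue differed (46 and 6 spots rich in Oxt and Avp, 232 and 57 striatal spots), so this count is a description. Over all genes 8.06% were higher and 4.75% lower, with a median of 0.07. Oxt had 663 and 63.1 CPM and Avp 24.4 and 5.32 CPM, while Pmch had 1.90 and 13.1 CPM and Cartpt 23.9 and 55.1 CPM.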

How the data were processed

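Visium libraries of 1 section per group were analysed. The authors had trimmed reads with TrimGalore and counted UMIs with Space Ranger 2.0.0 against the 10x reference on mm10, and the deposited matrices hold these counts per gene and spot, with no normalization. The deposited spatial tables hold a score by the authors, Moran's I. Their p-value column and their median-normalized average counts were not used here, and neither were images and reads. The study compared spots with a Wilcoxon test, which was not used because spots of 1 animal are not replicates.

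Spots of at least 500 UMIs were clustered jointly, without mitochondrial, ribosomal protein and haemoglobin genes and the genes named in the results, with scanpy 1.11.5 and leidenalg 0.10.2. Clusters took a name from the marker set with the highest mean z score, if above 1. A name also needed a marker of that set among the leading genes, no more markers of another set there, several markers detected, and spots that were not shallow. The Spp1 and Pvalb cluster (white matter set, 1.25) and the shallow cluster (hypothalamus set, 1.17) stayed unnamed by these conditions. Thresholds for naming were set after maps had been seen, and the members and lists were chosen with earlier results of these data known. Ratios used a pseudocount of 0.5 UMI and exact conditional binomial intervals. A gene was compared between sections at 400 UMIs or more in both together, and within a section at 200 or more. The rule for named genes took all members in each comparison, of which those past the limit are named for single regions between labels, with the 3 genes most like each in pattern and the extreme genes of each list. Hippocampal and hypothalamic depth is given beside the results; intervals at 95% cover counting error only. A count of 0 allows up to 3 counts. Sequences and start sites came from RefSeq, gene positions from GENCODE vM21, both on GRCm38, where 9 of 10 members matched a promoter and all 10 a gene by identifier. The Vgf promoter and proteins were not used here. Calculations in Python 3.11.15 with numpy 2.4.6, SciPy 1.17.1 and pandas 2.3.3 were tested on simulated data. Alternatives covered totals, spot weighting, thinning, GC content, side, pseudocount, minimum count, clustering resolution and the definition of Arc-positive spots.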

Additional observations from a re-analysis of the deposited data

Results flagged for a closer look

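Resp18 differed between the section labels in opposite directions in different regions. In CA3 its log2 ratio, trained over untrained, was -1.28 (95% interval -1.77 to -0.85; 46 and 357 UMIs), and in the choroid plexus it was 1.13 (0.77 to 1.47; 90 and 334 UMIs). With 1 section per label the difference between the regions was not tested. In the choroid plexus the left side of the section labelled trained held 359 CPM and the right side 48.0 CPM, while both sides of the section labelled untrained held 76.3 and 76.4 CPM. In that region the 7 choroid plexus markers summed to 174637 and 202767 CPM, the 7 white matter markers to 8355 and 5618 CPM and the 5 astrocyte markers to 1084 and 646 CPM. All 4 members compared there were above 0, with Pcsk1n at 0.92 (0.76 to 1.07), and the 3 peptide precursors compared, Cck, Oxt and Sst, were all 1.5-fold higher, where 12.7% of 1553 genes were higher and 7.79% lower and the median of all genes was 0.10. The part of other tissue in these spots was not tested.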

How the results depend on the processing

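No paired analysis was possible because the groups share a single replicate number, 1, with 1 section each. For the same reason no section was left out in turn. Over the whole section 1 member (Chga) passed 1.5-fold between the labels, and 2 did with each spot weighted equally (Pcsk2 added) or with a GC trend removed (Pcsk1n added), and 3 on the left side alone. That trend ran from a median log2 ratio of -0.16 to 0.35 over GC bins. Of 3 members in Arc-positive spots of the section labelled trained, 0 stayed past the limit when the hippocampal regions were standardised and 0 when Arc was called after thinning. In the section labelled untrained Chgb and Scg5 passed at first. With standardised regions neither did and 1 other member, Pcsk2, passed, with Arc called after thinning 0 did, and with at least 2 UMIs of Arc 1 (Scg5) did. When Arc was called after thinning, Chgb in the section labelled untrained turned from 0.64 to -0.24, with 46 Arc-positive spots. Without thinning, the median Moran's I of the members went from 0.0586 to 0.275 and from 0.0359 to 0.313. Against other medial spots, an alternative chosen after seeing the data, 0 in place of 2 members passed in the peptide-rich spots of the section labelled trained. The alternative that left peptide UMIs out of totals was chosen then too. The cause of these shifts was not tested. The 32 other recomputed counts and summaries stayed within 1.5 times the main value. Of the values of single members, 193 stayed within the counting interval of the main value. Another 181 were counted as moved, among them every Moran's I, which has no such interval. A reversal was counted only for a main value past 1.5-fold, and there was 1. Smaller values changed sign too. Resp18 between the labels went from -0.14 to 0.14 on the left side. Vgf in Arc-positive spots of the section labelled untrained went from 0.54 to -0.28 with standardised regions. Pcsk1 was too sparse to compare between the labels in any region.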
